A study of Homo sapiens with 12 samples.

Results

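The expression of 8 genes linked to the transcriptional co-activator YAP was followed in HK2 cells, an immortalised line from the human proximal tubule. The genes were taken by symbol, a choice made with earlier results of these data known: the co-activators YAP1 and WWTR1, the target genes CCN1, CCN2, ANKRD1, AMOTL2 and AXL, and THBS1, a matricellular gene and YAP target. Each symbol matched 1 of the 62703 Ensembl genes in the deposited table, and all 8 were among the 14639 genes tested, those with at least 1 TPM (transcripts per 1000000 transcripts) in 3 or more libraries. The table holds 12 libraries, 3 in each of 4 groups. NG cells were kept in 5.5 mM glucose with a control vector. HG cells were kept in 50 mM glucose. One section of the paper describes the NG medium as containing mannitol and the labels do not, so it is unclear whether NG and HG were matched for osmolarity. The si-FGF9 cells, in 5.5 mM glucose, received an siRNA against FGF9 by lipid transfection. The HG+OE-FGF9 cells, in 50 mM glucose, received a viral vector overexpressing FGF9, a lentivirus in the paper's methods and an adenovirus in its results. No time of treatment was used here. The sources describe no non-targeting siRNA, so si-FGF9 versus NG also holds whatever the siRNA transfection does. No control vector is described for HG. HG versus NG thus also holds whatever the control vector of NG does, and HG+OE-FGF9 versus HG whatever the virus does.

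YAP, the product of YAP1, and its paralogue TAZ, the product of WWTR1, carry signals from cell shape, attachment and serum to the nucleus. They do not bind DNA themselves but sit on the TEAD factors, and the Hippo kinases hold both in the cytoplasm: MST1 and MST2, encoded by STK4 and STK3, activate LATS1 and LATS2, which phosphorylate YAP and TAZ. CCN1 and CCN2, secreted matricellular proteins, and ANKRD1, a nuclear and sarcomeric ankyrin-repeat protein, are widely used readouts of YAP and TAZ activity. AMOTL2, an angiomotin, is a target that in turn holds YAP outside the nucleus. AXL is a receptor tyrosine kinase for GAS6. THBS1, thrombospondin 1, is a matrix glycoprotein that can activate latent TGFβ. In the kidney tubule this group of genes is known from injury and fibrosis. The activity of YAP depends largely on where the protein is, which RNA does not show.

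The 250 bases before the annotated start of 7 of the 8 genes were matched in RefSeq (GRCh38.p14), with a pair of starts each for AMOTL2, AXL and WWTR1. They were searched on both strands for the core letters of the TEAD motif, GGAATG or CATTCC. These letters occur in 11.9% of 34943 RefSeq promoters of this length, and 2 or more times in 0.942% of them. The CCN2 promoter held them 3 times and that of ANKRD1 2 times. YAP1, THBS1, the second start of AMOTL2 and the second start of AXL held them once, and both starts of WWTR1 held none. The letters of an AP-1 site (TGACTCA or TGAGTCA), present in 4.22% of all promoters, and the CArG box bound by SRF, in 1.16%, were found in 0 of the 10 promoters searched. The promoters of the pair that changed most, CCN2 (minus strand, chr6:131951373-131951622) and ANKRD1 (minus strand, chr10:90921088-90921337), and that of THBS1 (plus strand, chr15:39580829-39581078), whose order of groups was different, are shown 5′ to 3′ on the strand of the gene with the TEAD letters in capitals.
CCN2: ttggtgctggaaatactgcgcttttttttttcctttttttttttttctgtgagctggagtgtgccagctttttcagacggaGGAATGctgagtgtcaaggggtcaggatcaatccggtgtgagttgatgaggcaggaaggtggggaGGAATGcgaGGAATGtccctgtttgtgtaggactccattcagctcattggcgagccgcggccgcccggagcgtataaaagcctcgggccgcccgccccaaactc
ANKRD1: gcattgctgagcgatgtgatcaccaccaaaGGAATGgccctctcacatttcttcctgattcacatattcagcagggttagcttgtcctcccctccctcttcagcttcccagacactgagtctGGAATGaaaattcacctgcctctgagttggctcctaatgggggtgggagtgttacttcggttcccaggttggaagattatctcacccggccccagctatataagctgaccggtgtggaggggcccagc
THBS1: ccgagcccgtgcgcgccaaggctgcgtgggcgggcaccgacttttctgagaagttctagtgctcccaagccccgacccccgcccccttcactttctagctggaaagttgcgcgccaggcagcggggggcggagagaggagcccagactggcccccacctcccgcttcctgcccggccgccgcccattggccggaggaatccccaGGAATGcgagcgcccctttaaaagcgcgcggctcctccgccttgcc
In CCN2 the letters begin 169, 104 and 95 bases before the start, in ANKRD1 220 and 128, and in THBS1 46. A match of letters is a description and does not show binding.

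HG+OE-FGF9 replicates 1 and 2 lay much closer together than most replicates. The robust SD of their log2 ratio over 3839 well expressed genes was 0.0725, and 1810 genes were above 0 in only 1 of the pair, against 4335 to 5749 in the other pairs of replicates. NG replicates 2 and 3 (SD 0.0941) and si-FGF9 replicates 1 and 2 (0.152) were also close, and the other pairs lay between 0.26 and 0.742. The labels do not say whether replicates were separate cultures, so the p-values measure the spread between these libraries only. All 12 libraries were kept, and results that change when close pairs are averaged into 1 library are given as such. FGF9 was listed at 0 in all 9 libraries of the other groups and at 3.34, 4.03 and 3.82 TPM in HG+OE-FGF9, so it checks the label of HG+OE-FGF9 and not that of si-FGF9. Of 5 epithelial markers 4 (KRT8, KRT18, KRT19 and EPCAM) reached 1 TPM in all 12 libraries and CDH1 in none, and EPCAM had means of 24.0 TPM in NG and 6.31 to 10.9 in the other groups. The keratins did not follow EPCAM. KRT8 had means of 549 TPM in NG, 553 under HG, 459 with si-FGF9 and 502 with HG+OE-FGF9. In the same order KRT18 was at 231, 318, 286 and 343, and KRT19 at 376.7, 335.5, 374.7 and 228.5. Of 8 renal and proximal tubule markers, PAX8 and GGT1 reached 1 TPM in all libraries, PAX8 with means of 78.5 TPM in NG to 26.4 with HG+OE-FGF9 and GGT1 of 78.7 in NG to 186 with si-FGF9. AQP1 and SLC5A2 did so in some, and the defining genes CUBN, LRP2, SLC34A1 and ANPEP in none. Of 7 fibroblast markers, 2 (LUM and COL1A1) reached 1 TPM in all libraries, and COL1A2, COL3A1, PDGFRA and PDGFRB in none. The summed level of the 7 was 62.5 to 89.2 TPM in NG, 17.2 to 41.0 under HG, 11.6 to 21.0 with si-FGF9 and 11.6 to 22.5 with HG+OE-FGF9. Most of this sum was LUM alone, with means of 66.6 TPM in NG, 28.1 under HG, 14.4 with si-FGF9 and 13.0 with HG+OE-FGF9. This sum, EPCAM and PAX8 move with the 8 genes, while KRT18 and GGT1 had their lowest mean in NG. The part of these markers in the changes was not tested. The 4 endothelial markers summed to at most 0.15 TPM, and of 3 leukocyte markers the defining PTPRC stayed below 1 TPM, CD14 reached 3.90, and CD68, a lysosomal protein gene, had means of 117 to 158.

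YAP1 (ENSG00000137693, chr11:102110461-102233423 in the GRCh38 annotation of GENCODE release 29) was at 34.3, 36.5 and 33.1 TPM in NG, 12.9, 7.54 and 18.4 under HG, 4.61, 6.31 and 5.01 with si-FGF9, and 5.40, 5.49 and 9.78 with HG+OE-FGF9. Every NG library was above every other library, the si-FGF9 and HG+OE-FGF9 libraries overlapped, and the HG libraries spread widely. WWTR1 (chr3:149517235-149736714) was at 61.1, 58.0 and 53.6 TPM in NG, 35.1, 38.4 and 34.7 under HG, 14.0, 16.5 and 12.5 with si-FGF9, and 13.4, 14.3 and 22.4 with HG+OE-FGF9. Here HG lay clear of the groups on both sides, and si-FGF9 and HG+OE-FGF9 again overlapped. WWTR1 was thus the more abundant of the co-activators per transcript in every library, with 1.66 ± 0.102 times the TPM of YAP1 in NG (SD, n = 3) and 2.46 ± 0.157 to 3.24 ± 1.66 times in the other groups.

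CCN2 and ANKRD1 showed the widest range of the 8 genes. CCN2 (chr6:131948176-131951373) was at 173, 145 and 146 TPM in NG, 57.6, 41.4 and 28.2 under HG, 8.25, 6.85 and 9.53 with si-FGF9, and 17.0, 17.5 and 30.8 with HG+OE-FGF9. NG was highest and si-FGF9 lowest with no overlap, and the highest HG+OE-FGF9 library exceeded the lowest HG library. ANKRD1 (chr10:90912096-90921276) was at 191, 167 and 158 TPM in NG, 33.5, 18.7 and 66.8 under HG, 7.89, 9.98 and 8.16 with si-FGF9, and 30.9, 30.8 and 51.6 with HG+OE-FGF9. Its HG and HG+OE-FGF9 libraries lay in the same range, far below NG and above si-FGF9. AMOTL2 (chr3:134355874-134375479) was at 34.7, 42.9 and 44.3 TPM in NG, 24.0, 17.8 and 14.5 under HG, 3.08, 3.65 and 5.43 with si-FGF9, and 8.83, 8.57 and 17.3 with HG+OE-FGF9, the same order as CCN2.

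CCN1 was the most abundant of the 8 genes. Located at chr1:85580761-85583962, it was at 1411, 1149 and 1169 TPM in NG, 674, 627 and 573 under HG, 259, 286 and 410.3 with si-FGF9, and 507, 519 and 712 with HG+OE-FGF9. HG and HG+OE-FGF9 overlapped, between NG above and si-FGF9 below. AXL (chr19:41219203-41261766) was at 204, 184 and 189 TPM in NG, 168, 162 and 146 under HG, 102, 102 and 109 with si-FGF9, and 96.1, 97.5 and 149 with HG+OE-FGF9, the narrowest range of the 8 genes. THBS1 (chr15:39581079-39599466) was at 103, 103 and 104 TPM in NG, 53.6, 30.7 and 21.7 under HG, 25.5, 29.2 and 19.9 with si-FGF9, and 7.38, 7.98 and 14.2 with HG+OE-FGF9. Among the 8 genes it was one of 2, with AXL, that had their lowest single library in HG+OE-FGF9, and the only one whose HG+OE-FGF9 libraries all lay below those of the 3 other groups.

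**Figure D1:**
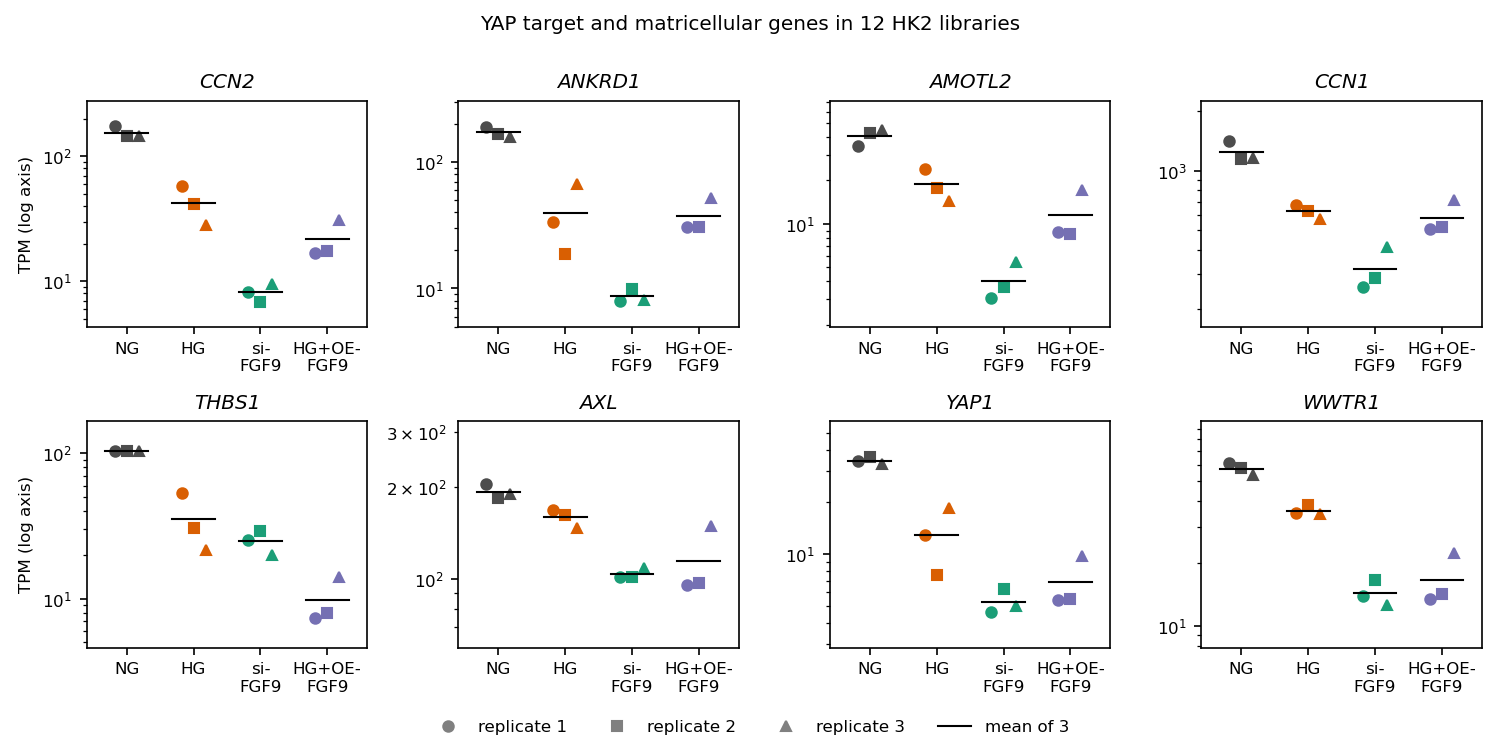
TPM (log axis, scaled per gene) of the 8 genes in the 12 libraries by group, with 1 symbol per replicate and a line at the mean of 3. NG is the highest group for every gene, and the lowest mean is that of si-FGF9 for every gene but THBS1, which is lowest with HG+OE-FGF9.

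Replicate 3 of HG+OE-FGF9 was the highest of its group for 8 of 8 genes, as it was for 67.2% of all genes tested. Replicate 3 of HG was the lowest of its group for 6 of the 8 genes and the highest for ANKRD1 and YAP1, while over all tested genes it was the lowest for 33.2% and the highest for 48.7%. Reads of a gene and of a copy or an antisense transcript may not be separable, but the listed partners were low. The YAP1 pseudogenes YAP1P1, YAP1P2 and YAP1P3 were listed at 0, WWTR1-AS1 reached 0.36 TPM, WWTR1-IT1 0.2, THBS1-AS1 1.07 and THBS1-IT1 3.23. In bulk RNA, fewer cells with a transcript and less of it per cell cannot be told apart.

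The comparison of HG with NG asks how the genes stand in high glucose, although a control vector is described for NG and not for HG. CCN2, ANKRD1, AMOTL2, THBS1 and YAP1 fell, CCN2 to 27.4% and ANKRD1 to 23.1% of the NG mean. Genes were called where the log2 fold change on the log2(TPM + 1) scale was at least 1 in either direction with an unadjusted p under 0.01 in limma, the thresholds the study used. By this rule 5 of the 8 genes were called lower, against 22.7% of all genes tested, and 0 higher. The change was -1.90 ± 0.27 (SE, adjusted p = 0.000707) for CCN2, -2.27 ± 0.35 (adjusted p = 0.00101) for ANKRD1, and -1.62 ± 0.30 (adjusted p = 0.00181) for THBS1. YAP1 fell by 1.43 (adjusted p = 0.00231) and AMOTL2 by 1.09 (adjusted p = 0.00722). CCN1, at -0.99 with an adjusted p of 0.00178, missed the threshold on size, as did WWTR1 at -0.66 (adjusted p = 0.0125). AXL was at -0.27 (adjusted p = 0.18), with a 95% interval of -0.62 to 0.08. Single libraries decided the genes near the threshold. AMOTL2 was not called without HG replicate 3 (-0.93), and CCN1 was called without NG replicate 2 (-1.04), NG replicate 3 (-1.03) or HG replicate 1 (-1.04). With 2 or 3 close pairs of libraries averaged CCN1 was called as well (-1.04), and with 3 AMOTL2 (-1.04) was not, missing on p. For all 8 genes every HG library was below every NG library, which was so for 46.5% of all genes tested.

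That last share shows how far the whole table moved. Over the 14639 genes the median log2 fold change stood at -0.39 for HG versus NG, at -0.79 for si-FGF9 versus NG and at -0.13 for HG+OE-FGF9 versus HG. Relative to it, 4 of the 8 genes were called lower in HG versus NG (CCN2, ANKRD1, THBS1 and YAP1), against 9.51% of all genes, and AXL was 0.12 above it. Of the 3570 genes called in HG versus NG 3328 were lower, and with median-of-ratios scaling 1240 of 2303, the 8 genes then giving 3 called. The calls also depended on a correction for the GC content of the transcripts, with 970 genes called in HG versus NG after it. With this correction 4 of the 8 genes were called lower (CCN2 at -1.65, ANKRD1 at -1.48, AMOTL2 at -1.09 and THBS1 at -1.05), against 3.06% of all genes. YAP1 then stood at -0.67, and WWTR1, which at 40.9% has the lowest GC content of the 8, at 0.33, on the other side of 0 from its uncorrected value, with neither value called. Thus CCN2, ANKRD1 and THBS1 were called lower on all 3 scales, and with transcript length corrected as well as GC content THBS1 (-0.78) was no longer called.

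In si-FGF9 versus NG the same readouts stood lower still. CCN2 was at 5.30% of the NG mean and ANKRD1 at 5.04%, AMOTL2 at 9.98%, YAP1 at 15.3%, and CCN1, THBS1 and WWTR1 at 24.0% to 25.6%. The 7 genes named here were called lower, against 42.2% of all genes tested. The log2 fold change was -4.09 ± 0.27 for CCN2 (adjusted p = 2.47e-06), -4.16 ± 0.35 for ANKRD1 (adjusted p = 6.26e-06) and -3.06 ± 0.28 for AMOTL2 (adjusted p = 7.64e-06). Of all genes tested, 0.116% had a lower fold change than ANKRD1, 0.15% than CCN2 and 1.36% than AMOTL2. YAP1 fell by 2.51, THBS1 by 2.03, CCN1 by 1.98 and WWTR1 by 1.94, with adjusted p of at most 8.96e-05. AXL, at -0.88 (adjusted p = 0.000398), missed the threshold on size and lay 0.08 below the median of all genes.

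Measured against that median, the same 7 genes were called lower, against 17.8% of all genes. After the GC correction 6 were (12% of all genes), CCN2 at -3.52, ANKRD1 at -2.92, AMOTL2 at -2.81, CCN1 at -1.35, YAP1 at -1.29 and THBS1 at -1.06, while WWTR1 was at -0.43 and no longer called. With length corrected too, THBS1 (-0.75) was also not called. All 8 genes were below NG in every si-FGF9 library, as were 62.1% of all genes tested. Both comparisons use the NG libraries, so their likeness is no independent evidence. The HG libraries, with 50 mM glucose, and the si-FGF9 libraries, with 5.5 mM, were therefore also set against each other. CCN2 (-2.19, adjusted p = 0.00126), AMOTL2 (-1.97, adjusted p = 0.00176), ANKRD1 (-1.90, adjusted p = 0.00404), WWTR1 (-1.28, adjusted p = 0.00186) and YAP1 (-1.07, adjusted p = 0.0166) were called lower in si-FGF9 than in HG, 5 of 8 genes against 9.67% of all genes tested, and 4 with 3 close pairs of libraries averaged. Of these, CCN2, AMOTL2 and ANKRD1 were also called relative to the median (2.09% of all genes) and after the GC correction (2.52%). THBS1 (-0.41, adjusted p = 0.3) was not distinguishable between si-FGF9 and HG, with a 95% interval of -1.07 to 0.25.

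**Figure D2:**
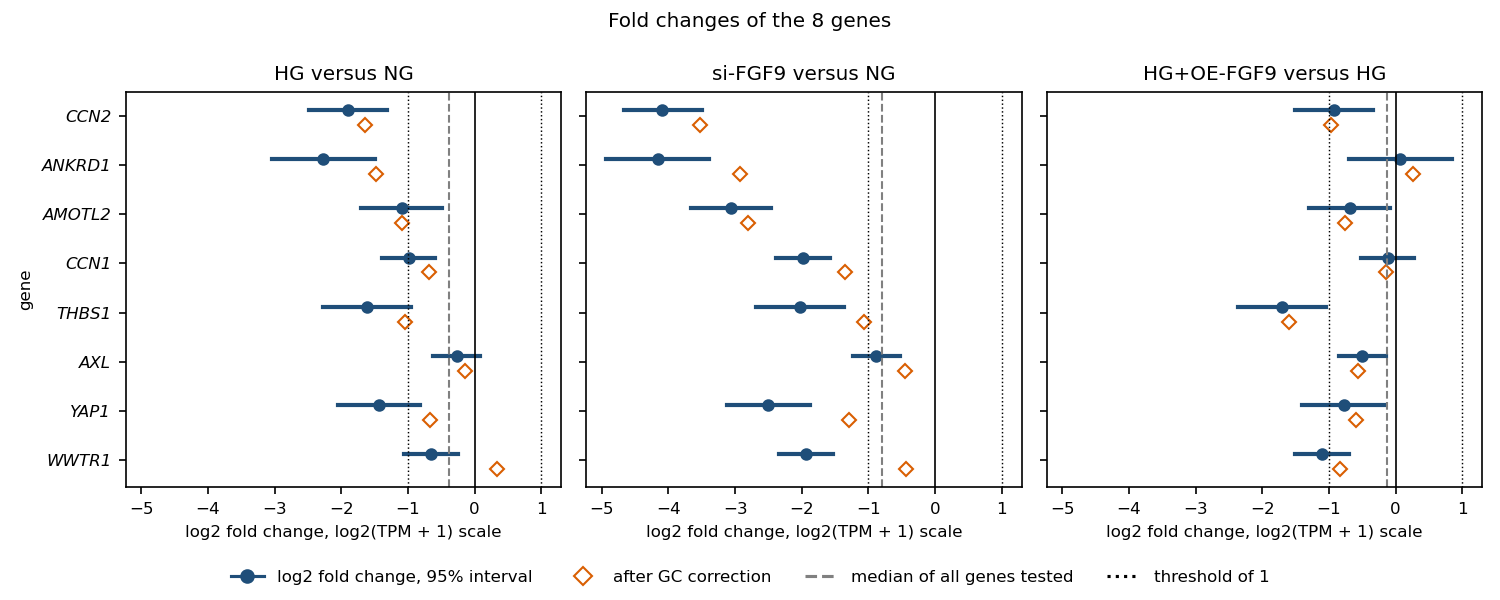
Log2 fold change on the log2(TPM + 1) scale (x axis) of each of the 8 genes (y axis) in the 3 main comparisons. Filled circles are the fitted values with 95% intervals from limma, open diamonds the values after correction for GC content, the dashed line the median of all genes tested and the dotted lines the threshold of 1. CCN2, ANKRD1 and AMOTL2 lie at -3.06 or lower in si-FGF9 versus NG, and THBS1 is the lowest gene in HG+OE-FGF9 versus HG.

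The third comparison, HG+OE-FGF9 versus HG, asks what FGF9 overexpression changes within high glucose. THBS1 fell to 27.9% and WWTR1 to 46.3% of the HG mean, and the readouts ANKRD1 and CCN1 stood at 95.1% and 92.8%. THBS1 (-1.70 ± 0.30, adjusted p = 0.00606) and WWTR1 (-1.10 ± 0.19, adjusted p = 0.00453) were called lower, 2 of 8 genes against 2.67% of all genes tested. These were also the only 2 of the 8 genes whose groups did not overlap, which held in this direction for 9.95% of all genes. Only 0.376% of all genes had a lower fold change than THBS1. THBS1 was one of the genes the study itself picked from these libraries for follow-up. By RT-qPCR the study reported THBS1 higher than NG in HG and in si-FGF9, where it was lower here. In HG+OE-FGF9 the study reported it lower than in HG, the direction seen here.

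The other 6 genes were not called. CCN2 was at -0.93 (adjusted p = 0.0508), YAP1 at -0.78 (adjusted p = 0.102), AMOTL2 at -0.69 (adjusted p = 0.13) and AXL at -0.50 (adjusted p = 0.0723). CCN1 was at -0.12 with a 95% interval of -0.52 to 0.28, and ANKRD1 at 0.07 with an interval of -0.70 to 0.84, so that these 3 libraries against 3 leave a change of ANKRD1 in either direction undecided. THBS1 was the only one of the 8 called relative to the median (-1.57, against 1.58% of all genes) and after the GC correction (-1.60, against 2.18%), where WWTR1 stood at -0.97 and -0.83. With the close pairs of libraries averaged, THBS1 was still called (-1.57) and WWTR1, at -0.99, was not. Without HG+OE-FGF9 replicate 1 the count was 1, and without replicate 3 of that group, in which all 8 genes were highest, it was 4, CCN2 (-1.20) and YAP1 (-1.03) being added. CCN2 was also called without HG replicate 3 (-1.18) and YAP1 without HG replicate 2 (-1.10).

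Against NG, 7 of the 8 genes were called lower in HG+OE-FGF9 (32.7% of all genes tested), all but AXL. THBS1 stood at 9.52% of NG (log2 fold change -3.32, adjusted p = 2.01e-05), CCN2 at 14.1% and ANKRD1 at 21.9%. By mean TPM, 0 of the 8 genes were closer to NG in HG+OE-FGF9 than in HG, whereas on the log scale ANKRD1 was slightly closer (-2.20 against -2.27, and -1.22 against -1.48 after the GC correction), a difference within the error. The si-FGF9 and HG+OE-FGF9 groups were also set against each other. CCN2 (-1.26, adjusted p = 0.00622), AMOTL2 (-1.27, adjusted p = 0.00694) and ANKRD1 (-1.97, adjusted p = 0.00277) were called lower in si-FGF9 than in HG+OE-FGF9 (3 of 8 genes, 7.36% of all). THBS1 was called higher (1.29, adjusted p = 0.0101, 1.65% of all genes in that direction). After the GC correction ANKRD1 (-1.70, 3.49% of all genes in that direction) and THBS1 (1.59, 3.68%) were the 2 called, and with 3 close pairs of libraries averaged THBS1 was not. YAP1 (-0.29, interval -0.91 to 0.33), WWTR1 (-0.18, interval -0.59 to 0.23) and AXL (-0.10, interval -0.45 to 0.25) were not distinguishable between these groups.

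The order of groups therefore differed among the genes. For CCN2 and AMOTL2 it was NG, HG, HG+OE-FGF9 and si-FGF9 from high to low, where the HG and HG+OE-FGF9 neighbours were not called apart, CCN2 missing on size alone. ANKRD1 and CCN1 had the same order of means with HG and HG+OE-FGF9 nearly level, and for CCN1 no pair of neighbours passed the fold threshold. YAP1, WWTR1 and AXL had a like order with si-FGF9 and HG+OE-FGF9 indistinguishable at the low end, and HG was called apart from HG+OE-FGF9 for WWTR1 alone of these 3. For THBS1 alone HG+OE-FGF9 came last, after si-FGF9, its HG and si-FGF9 levels being indistinguishable. Over the 12 libraries, the root mean square difference of centred log2(TPM + 1) was smallest between YAP1 and WWTR1 (0.399) and largest between ANKRD1 and THBS1 (1.3).

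Ratios within a library do not depend on its scaling, and pairs of the genes with like GC content were set against each other after their values had been seen. The longest transcripts of ANKRD1 (1979 bases) and THBS1 (7775) differ in length from that of YAP1 (5398), so their ratios to YAP1 are not matched for length. The CCN2 level was 0.125 ± 0.00153 of that of CCN1 in NG (SD, n = 3), 0.0669 ± 0.0181 under HG, 0.0263 ± 0.00478 with si-FGF9 and 0.0368 ± 0.00563 with HG+OE-FGF9. AMOTL2 was at 0.213 ± 0.037 of AXL in NG, 0.117 ± 0.0229 under HG, 0.0387 ± 0.0102 with si-FGF9 and 0.0986 ± 0.0152 with HG+OE-FGF9. For both ratios each NG library was above each library of the other groups, so these YAP targets did not move by a common factor. ANKRD1 stood at 4.97 ± 0.518 times the level of YAP1 in NG, 2.91 ± 0.636 times under HG, 1.64 ± 0.0656 times with si-FGF9 and 5.53 ± 0.225 times with HG+OE-FGF9. Although YAP1 was not distinguishable between si-FGF9 and HG+OE-FGF9, ANKRD1 per YAP1 was lowest in the former and at the NG range or just above it in the latter. The THBS1 to YAP1 ratio went the other way, 4.71 ± 0.773 with si-FGF9 and 1.42 ± 0.0462 with HG+OE-FGF9, against 2.99 ± 0.15 in NG. In HG it was 4.17 at most and 1.18 in replicate 3.

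**Figure D3:**
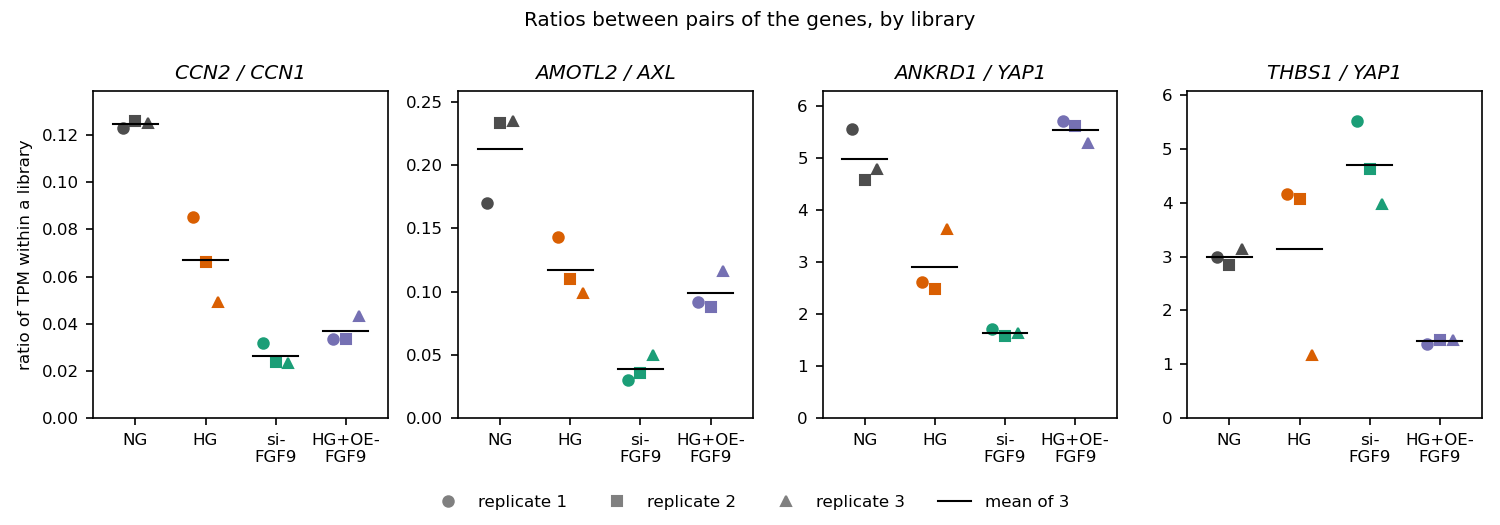
Ratio of the TPM of 2 genes within a library (y axis, from 0) by group, with 1 symbol per replicate and a line at the mean of 3. CCN2 per CCN1 and AMOTL2 per AXL are highest in NG and lowest in si-FGF9, and ANKRD1 per YAP1 and THBS1 per YAP1 differ in opposite directions between si-FGF9 and HG+OE-FGF9.

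The partners of YAP and TAZ moved unevenly. Among the TEAD factors, TEAD1 fell in HG versus NG (8.59 ± 1.00 TPM in NG, 2.09 ± 1.20 in HG, log2 fold change -1.70, adjusted p = 0.00161) and in si-FGF9 versus NG (-2.39, adjusted p = 3.56e-05). TEAD2, at 15.5 TPM in NG and 22.4 in HG, and TEAD4, at 11.8 and 18.2, were not called (0.51 and 0.56). TEAD3 fell in si-FGF9 versus NG by 1.06 (adjusted p = 0.000129). VGLL4, which competes with YAP for TEAD, fell by 1.51 in HG and by 2.56 in si-FGF9. After the GC correction VGLL4 was still called in both and TEAD1, at -0.75 and -0.92, in neither. In HG+OE-FGF9 versus HG 0 of these 5 genes were called, TEAD3 having the smallest unadjusted p (0.0481).

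The kinases that restrain YAP fell in both comparisons with NG as well. Of 11 Hippo kinases and adaptors, 9 were called lower in HG versus NG (22.7% of all genes) and 10 in si-FGF9 versus NG (42.2%), with medians of -1.41 and -1.82. In HG the log2 fold changes were -1.13 for STK3, -1.36 for STK4, -1.5 for LATS1 and -1.48 for LATS2, and with the siRNA -1.65, -1.82, -1.92 and -2.11 in the same order. The adaptors MOB1B and MOB1A and the kinase TAOK1 were among the lowest, MOB1A at -2.31 in si-FGF9. Most of these calls were lost after the GC correction. With it 1 of the 11, LATS2, was called lower in HG (3.06% of all genes), and LATS2 and TAOK2 in si-FGF9 (12%), LATS2 being itself a YAP target. In HG+OE-FGF9 versus HG 0 of the 11 were called, with a smallest unadjusted p of 0.0151 for MAP4K4 and 2 of the 11 at an unadjusted p under 0.05. Of 10 tested upstream regulators and YAP inhibitors, 3 were called lower in HG (FRMD6 at -1.99, WWC2 at -1.68 and FAT4 at -1.33), 8 with the siRNA and 0 in HG+OE-FGF9 versus HG, where 5 had an unadjusted p under 0.05, against 22.7%, 42.2% and 2.67% of all genes. After the GC correction 0, 2 and 0 were called lower (3.06%, 12% and 2.18% of all genes), so that the 3 calls in HG were lost.

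Other genes widely used as YAP targets behaved like the 8 in part. Of 16 tested, 5 fell in HG versus NG, 13 in si-FGF9 versus NG and 8 in HG+OE-FGF9 versus HG. The shares of all genes called lower were 22.7%, 42.2% and 2.67%. The medians were -0.99, -1.54 and -0.94, against -0.39, -0.79 and -0.13 over all genes tested. After the GC correction the counts were 5, 8 and 5, against 3.06%, 12% and 2.18% of all genes. TGFB2, a TGFβ ligand, had means of 113 TPM in NG, 20.7 under HG, 8.94 with si-FGF9, and 6.39 with HG+OE-FGF9, and fell in all 3 comparisons (-2.44, -3.61 and -1.57). It too was picked by the study from these libraries. By RT-qPCR the study reported TGFB2 higher than NG in HG and in si-FGF9, where it was lower here. In HG+OE-FGF9 the study reported it lower than in HG, the direction seen here. F3, tissue factor, was at 51.2, 24.0, 3.22 and 2.81 TPM and fell in si-FGF9 versus NG (-3.65) and in HG+OE-FGF9 versus HG (-2.51). IGFBP3, which binds insulin-like growth factors, fell from 280 ± 75.8 TPM in HG to 80.5 ± 17.7 in HG+OE-FGF9 (-1.77, adjusted p = 0.000407). ASAP1, an Arf GTPase-activating protein, and CRIM1, a membrane protein that binds growth factors, fell in all 3 comparisons, by 1.82, 3.21 and 1.04 for ASAP1 and by 1.70, 2.75 and 1.16 for CRIM1. Thus F3, TGFB2, IGFBP3 and CRIM1 fell together with THBS1 when FGF9 was overexpressed, while CCN1, ANKRD1 and NUAK2 (-0.22) were not called.

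**Figure D4:**
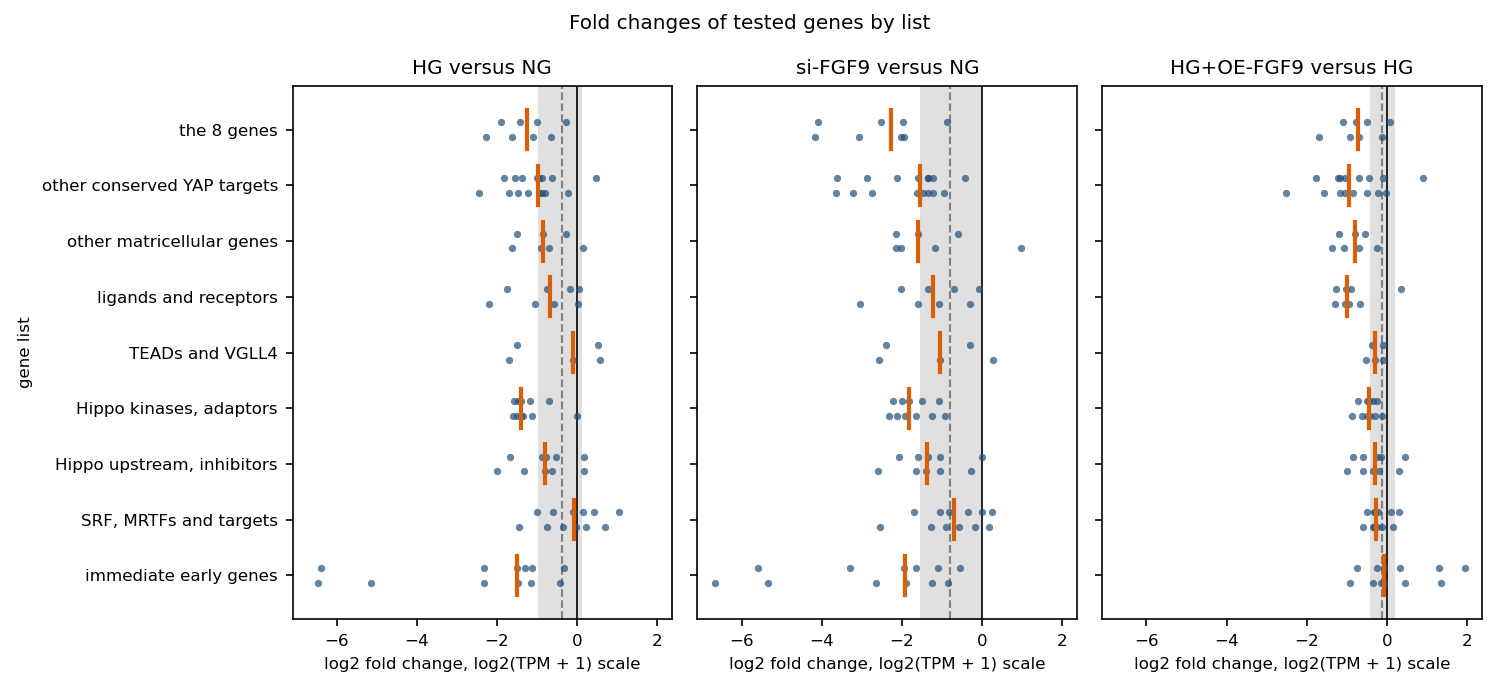
Log2 fold change on the log2(TPM + 1) scale (x axis) of each tested gene (points) of 9 gene lists (y axis) in the 3 main comparisons, with the median of the list (orange bar), the median of all genes tested (dashed line) and their interquartile range (grey). The median of the 8 genes is -1.26, -2.27 and -0.74, and the immediate early genes reach below -6 in the first 2 comparisons.

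Of 19 other matricellular genes, 7 were expressed enough to be tested. THBS2, a paralogue of THBS1, fell by 1.63 in HG versus NG, by 2.15 in si-FGF9 versus NG and by 1.07 in HG+OE-FGF9 versus HG. SPP1, osteopontin, fell by 1.51, 2.02 and 1.36. TNC, tenascin C, was called in the last 2 comparisons (-2.15 and -1.20). In all, 2, 5 and 3 of the 7 were called lower, against 22.7%, 42.2% and 2.67% of all genes, and 1, 2 and 3 after the GC correction (3.06%, 12% and 2.18%). THBS3, another paralogue, was at 34.2 TPM in NG and 68.0 in si-FGF9 (0.97, not called) and was called higher there after the GC correction (1.25). The ligands and receptors of the 8 genes were listed as a group of 10, of which 8 were tested and 3, 5 and 4 were called lower against the same shares of all genes, and 1, 2 and 3 after the GC correction. ITGAV, the integrin αv subunit that binds CCN1, CCN2 and THBS1, fell by 2.19, 3.04 and 1.28. PROS1, a ligand of the AXL family, fell by 1.74 in HG and 2.03 in si-FGF9. GAS6, the ligand of AXL, fell in si-FGF9 versus NG (-1.07) and, when FGF9 was overexpressed, in high glucose (-1.02, adjusted p = 0.00407), the AXL relative TYRO3 was not called in any of the 3 (0.01, -0.08 and 0.35), and MERTK was too low to be tested. CD47, a THBS1 receptor, fell by 1.59 in si-FGF9, and LRP1, which clears THBS1, by 1.30 in HG+OE-FGF9 versus HG.

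Serum-response genes were counted alongside, since YAP targets such as CCN1, CCN2 and ANKRD1 respond to serum and SRF as well. Of 12 tested immediate early genes, 9 were called lower in HG versus NG (22.7% of all genes) and 10 in si-FGF9 versus NG (42.2%), among them FOS, which went from 259.6 ± 14.1 TPM in NG to 2.84 ± 3.52 under HG and 4.62 ± 1.72 with si-FGF9, EGR1, from 132 ± 1.63 to 0.613 ± 0.319 and 0.327 ± 0.290, and FOSB (-5.15 and -5.35). After the GC correction 9 and 8 were called (3.06% and 12%). In HG+OE-FGF9 versus HG 2 of the 12 were called higher, ATF3 (1.94) and FOSB (1.35), against 2.94% of all genes in that direction. Of SRF, the MRTF genes and their cytoskeletal targets, 12 genes in all, 1 fell in HG (VCL, vinculin, by 1.46), 4 in si-FGF9 (VCL by 2.55, CNN1 by 1.70, TPM1 by 1.27 and FHL2 by 1.04) and 0 in HG+OE-FGF9 versus HG, where 2 had an unadjusted p under 0.05, VCL and TPM1. The counts for HG and si-FGF9 are shares below the 22.7% and 42.2% of all genes, and after the GC correction they were 0 and 2. Both the 12 immediate early genes and the 8 genes were lower than NG in HG and in si-FGF9. Between si-FGF9 and HG the lists differed. There 0 of the 12 were called, with a median of -0.3. Of the 8 genes, 5 were called lower (9.67% of all genes), with a median of -1.18. The part of the immediate early genes in the fall of the 8 genes was not tested.

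The genes whose pattern over the 12 libraries was most like that of a member were found among 8321 candidates with a mean of at least 5 TPM. For CCN2 they were the cytokine gene IL6 (root mean square difference 0.303 on the centred log2(TPM + 1) scale), the chemokine gene CXCL2 (0.343) and ARL6IP6 (0.347), where the median over all candidates was 1.29. IL6 had means of 151, 71.0, 10.9 and 26.5 TPM for NG, HG, the siRNA and HG+OE-FGF9. For THBS1 they were the matrix metalloproteinase gene MMP7 (0.341), INSIG2 (0.341) and the lysyl oxidase gene LOX (0.35), against a median of 1.11. MMP7 had means of 148, 48.9, 30.8 and 8.38 TPM, and so shared with THBS1 the lowest level in HG+OE-FGF9. LOX, also picked by the study, had means of 169, 57.7, 41.9 and 24 TPM in the same order of groups. The study's RT-qPCR had LOX higher than NG in HG and in si-FGF9, where it was lower here. CCN1 lay nearest to CWC25 (0.128), UBQLN2 (0.131) and ING4 (0.133), with a median of 0.643. These differences describe 12 libraries that share groups, and none was tested.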

How the data were processed

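RNA of HK2 cells was sequenced by the authors on an Illumina platform in 12 libraries. The deposited values are TPM for 62703 Ensembl genes, scaled by the authors to a sum of 1000000 per library, which keeps no depth, so the precision was judged from the 3 libraries of each group. Per the labels, the submitters' processing notes name Bowtie 0.12.2 and the mouse build mm8, although the identifiers are human. The aligner and build behind these TPM are thus uncertain. One paper section describes the NG medium as containing mannitol, the labels do not.

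The 8 genes and all lists were chosen with earlier results of these data known. limma 3.58.1 (R 4.3.3) was fitted to log2(TPM + 1) with a variance trend, all 12 libraries in one fit and the group as the only term, over genes reaching 1 TPM in 3 or more libraries. Adjusted p are Benjamini-Hochberg over all 14639 genes. The fit was tested on simulated data. GC content came from the longest transcript of GENCODE release 29 (GRCh38) for 96.9% of the tested genes, and a natural spline with 5 degrees of freedom was subtracted in each library. The GC fit covers 14191 genes. An exact permutation test of 3 libraries against 3 cannot go below 0.1 and was not used.

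Named beside the 8 genes were the TEAD genes, STK3, STK4, LATS1, LATS2, the AXL family with GAS6, up to 3 genes of each list with the largest called change in each main comparison, read-sharing genes, and the 3 genes most like CCN1, CCN2, THBS1 and YAP1. The genes most like YAP1 are not reported here. TAOK2, MAP4K4, NUAK2, THBS3 and FHL2 fall outside this rule and were chosen after their values were seen. Alternatives were other filters, pseudocounts, scalings, call rules, blocks and left-out libraries. Averaging close libraries and a GC and length correction were added after the data had been seen.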

Additional observations from a re-analysis of the deposited data

How the results depend on the processing

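The count of 7 genes called in si-FGF9 versus NG lay between 5 and 7 under the 27 alternatives, and was 5 with median-of-ratios scaling and with the GC and length correction. In HG versus NG the 5 called became 3 with median-of-ratios scaling and 2 with the GC and length correction, and 4 to 6 with each library left out. In HG+OE-FGF9 versus HG the 2 called became 1 with median-of-ratios scaling, the GC correction, the GC correction with the replicate block, the change relative to the median of all genes, 2 or 3 close pairs averaged, and the GC and length correction, and 1 to 4 with each library left out. In HG+OE-FGF9 versus NG the 7 called became 4 with the GC and length correction. In si-FGF9 versus HG the 5 called became 3 with median-of-ratios scaling, quantile normalization, the GC correction with or without the replicate block, the change relative to the median, and the GC and length correction. In si-FGF9 versus HG+OE-FGF9 the 4 called became 2 with median-of-ratios scaling, quantile normalization and the GC correction with or without the replicate block, and 2 to 5 with each library left out (2 without HG+OE-FGF9 replicate 3). The cause was not tested. In the 3 main comparisons no called change of the 8 genes reversed under any alternative run. For the other pairs of groups only the counts were followed.

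Same-numbered replicates did not deviate together (correlations from -0.44 to 0.25), so the numbers were not used as pairs. With the replicate number as a block, 5, 7 and 2 genes were called in the 3 main comparisons, as without it.

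Over all genes tested, 3570 were called in HG versus NG (3328 lower), and 2303 with median-of-ratios scaling (1240 lower), 2197 with quantile normalization, 970 after the GC correction, 749 after the GC and length correction, 2370 with at least 1 TPM in all libraries and 2238 without HG replicate 2. In si-FGF9 versus NG 6966 were called, 3452 after the GC correction (1701 lower) and 2817 with length added. In HG+OE-FGF9 versus HG 821 were called, 428 with at least 1 TPM in all libraries, 520 and 504 with close pairs averaged, 1360 with HG replicate 2 left out and 1617 with HG+OE-FGF9 replicate 3 left out. The edgeR test planned for counts, and the DESeq2 and TMM alternatives, were not run on TPM.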
